A study of Mus musculus with 13 samples.

Results

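The 31 genes described here encode enzymes of cholesterol and fatty acid synthesis and the sterol-sensing proteins that control them. They are the rows with these gene symbols among the 48587 mouse genes of a bulk RNA-seq count table. All 31 were found in the table and all 31 passed the filter on low counts, as part of 13246 genes that did. The table holds 13 libraries from C57BL/6J mice: 4 of sciatic nerve macrophages, the resident macrophages of a peripheral nerve, 4 of optic nerve macrophages, from a tract of the central nervous system, and 5 of brain microglia, the resident macrophages of the brain parenchyma. No injury, treatment or transgene is named for these libraries. The sources used here do not give age, sex, the gate used to isolate the cells or the number of mice behind each library. The p-values therefore measure only the spread between these libraries, which may be technical. The 5 brain columns carry a prefix that no label spells out. They were taken as brain microglia because brain is the group with 5 replicates and the other columns name the nerves.

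Animal cells make cholesterol from acetyl-CoA through mevalonate, isoprenoids, squalene and lanosterol, and make fatty acids from the same precursor through malonyl-CoA. When sterol in the endoplasmic reticulum is low, the escort protein Scap carries the SREBP transcription factors, encoded by Srebf1 and Srebf2, to the Golgi, where they are cut and released to the nucleus. Srebf2 mainly drives cholesterol genes, and Srebf1 mainly drives fatty acid genes. When sterol is high, the Insig proteins hold Scap back, and oxysterols activate the nuclear receptor LXR, which drives sterol efflux genes, Srebf1 and Mylip. Myelinated nerves and brain are rich in cholesterol, and their macrophages take up sterol when they engulf cells and myelin.

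SREBP binds sterol regulatory elements, and it often acts beside the factors NF-Y and Sp1. Windows around matches in the promoters of 5 members are printed to show what such letters look like in genes described further on. They were read from RefSeq promoters (GRCm38.p6, the assembly of the mm10 build), 5′ to 3′ on the strand of the gene. Capitals mark TCACNCCA, a form of the sterol regulatory element, CACGTG, an E-box that bHLH factors such as SREBP can bind, CCAAT, the NF-Y motif, and GGGCGG, the Sp1 motif, each on either strand.
Hmgcs1, chr13:119690184-119690251, forward strand: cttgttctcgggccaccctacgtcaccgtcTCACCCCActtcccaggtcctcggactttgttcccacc
Srebf2, chr15:82147077-82147144, forward strand: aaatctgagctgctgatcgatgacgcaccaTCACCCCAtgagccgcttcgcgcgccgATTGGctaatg
Insig1, chr5:28071281-28071346, forward strand: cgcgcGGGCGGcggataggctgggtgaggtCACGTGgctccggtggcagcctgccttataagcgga
Hsd17b7, chr1:169969313-169969378, reverse strand: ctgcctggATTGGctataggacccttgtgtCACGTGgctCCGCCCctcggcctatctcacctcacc
Sc5d, chr9:42264363-42264428, reverse strand: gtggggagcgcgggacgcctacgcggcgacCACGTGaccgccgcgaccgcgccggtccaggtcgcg
The match nearest the centre of each window begins 137 bases before the annotated start in Hmgcs1, 162 in Srebf2, 101 in Insig1, 143 in Hsd17b7 and 98 in Sc5d, and all 5 windows lie outside the exons of the GENCODE annotation.

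Promoters were listed for 25 of the 31 members, and the 250 bases before each start were searched on both strands. Fdps, Fdft1, Sqle, Scd1, Scd2 and Stard4 were not matched. TCACNCCA was present in 3 of the 25 members, Hmgcs1, Msmo1 and Srebf2 (12%), against 4.2% of all 27025 genes with a listed promoter and 4.08% of the 9453 of them that were tested for expression. The longer TCACNCCAC, which contains it, was present in Hmgcs1 alone among the members (4%), against 1.25% of tested genes. CACGTG was present in Hsd17b7, Sc5d, Dhcr7, Scap and Insig1 (20%), against 9.9% of tested genes. CCAAT was present in 20 members (80%), against 40.6% of tested genes, and GGGCGG in 21 (84%), against 63.4%. A match is a run of letters, not a measured binding site, and these shares are descriptions. The 3 members with TCACNCCA were higher in both nerves than in brain. Of those with CACGTG, Sc5d and Insig1 were higher in both nerves, Hsd17b7 was higher in sciatic nerve, Dhcr7 passed in neither and Scap was lower in both. Whether a motif goes with a direction of expression was not tested.

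Libraries held 10877914 to 23498764 counts, and the 31 members together took 0.0856% to 0.148% of them. Brain replicate 1 stood apart. It had the lowest total, and 3.79% of its counts came from mitochondrial genes, against 0.410% to 1.23% in the other 12 libraries. It also held 20.5 CPM of the neuronal gene Snap25. CPM are counts per 1e6 counts of the library total, scaled by the trimmed mean of M-values (TMM). The macrophage receptor Csf1r was high in every library (4150.4 to 5915 CPM in sciatic macrophages, 6382 to 8248 CPM in optic macrophages and 4808 to 14631 CPM in microglia). Brain replicate 2 also differed from brain replicates 3, 4 and 5 on this gene. Csf1r had 4808 and 7625 CPM in brain replicates 1 and 2, against 13715, 14631 and 14046 CPM in replicates 3, 4 and 5. The microglial genes Tmem119 and Sall1 followed the labels, with Tmem119 at 4.33 to 8.57 CPM in sciatic macrophages, 1424 to 2054 CPM in optic macrophages and 3123 to 5420.2 CPM in microglia. Retnla, a gene of some peripheral macrophages, had 10883 to 21001 CPM in sciatic macrophages, 13.3 to 41.2 CPM in optic macrophages and 0 CPM in microglia. In bulk libraries of this kind, fewer cells of a type and less RNA per cell cannot be told apart.

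Many cholesterol synthesis genes were higher in macrophages of both nerves than in brain microglia: of the 18 enzymes of the mevalonate and sterol steps, 9 were higher in each nerve and none was lower. Fatty acid genes and the SREBP control genes went both ways. Genes were called by edgeR's quasi-likelihood test at an adjusted p below 0.05. In sciatic nerve against brain, 14 of the 31 members were higher (45.2%) and 5 were lower (16.1%), where 24.1% of all tested genes were higher and 24.3% were lower. In either direction this was 61.3% of the members and 48.4% of all tested genes. In optic nerve against brain, 13 members were higher (41.9%) and 4 were lower (12.9%), where 19.6% of all tested genes were higher and 17.4% were lower, or in either direction 54.8% of the members and 36.9% of all tested genes. All the higher calls in both comparisons were also at least 2-fold, as were 18% of all tested genes in sciatic nerve and 12.6% in optic nerve. The median log2 fold change of the members was 1.03 in sciatic nerve over brain, against -0.09 over all tested genes, and 0.66 in optic nerve over brain, against -0.08. Both comparisons use the same 5 brain libraries, so they are not independent of each other. The higher members include Idi1 and Scd1 in both comparisons and Elovl6 in sciatic nerve. These genes passed the filter on low counts only through nerve libraries, where they were high, so their calls were favoured by the filter.

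Between the nerves fewer members were called than against brain. In sciatic nerve against optic nerve, 2 members were higher (6.45%) and 5 were lower (16.1%), where 10.9% of all tested genes were higher and 10.9% were lower. In either direction this was 22.6% of the members, close to the 21.8% of all tested genes. The higher members include Elovl6, which passed the filter on low counts only through the sciatic nerve libraries. Of the lower members 1 was also at least 2-fold lower (3.23%, against 7.85% of all tested genes). The median log2 fold change was 0.16 against 0.00 over all tested genes. The libraries of the groups did not overlap for 21 members in sciatic nerve and brain (41.3% of all tested genes did not overlap), for 15 in optic nerve and brain (31.8%) and for 11 in sciatic nerve and optic nerve (29.9%). By mean level, 16 members ran in the order sciatic nerve, optic nerve, brain from highest to lowest (51.6%, against 23.4% of all tested genes), and 7 were highest in brain (22.6%, against 42.9%). The count higher between the nerves was 1 in place of 2 without any one sciatic nerve library or without optic nerve replicate 1, 2 or 3. The count lower was 2 or 3 in place of 5 without sciatic nerve replicate 1, 2 or 4, any one optic nerve library, or brain replicate 3 or 4. With limma-voom in place of edgeR 4 were higher and 3 lower.

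**Figure D1:**
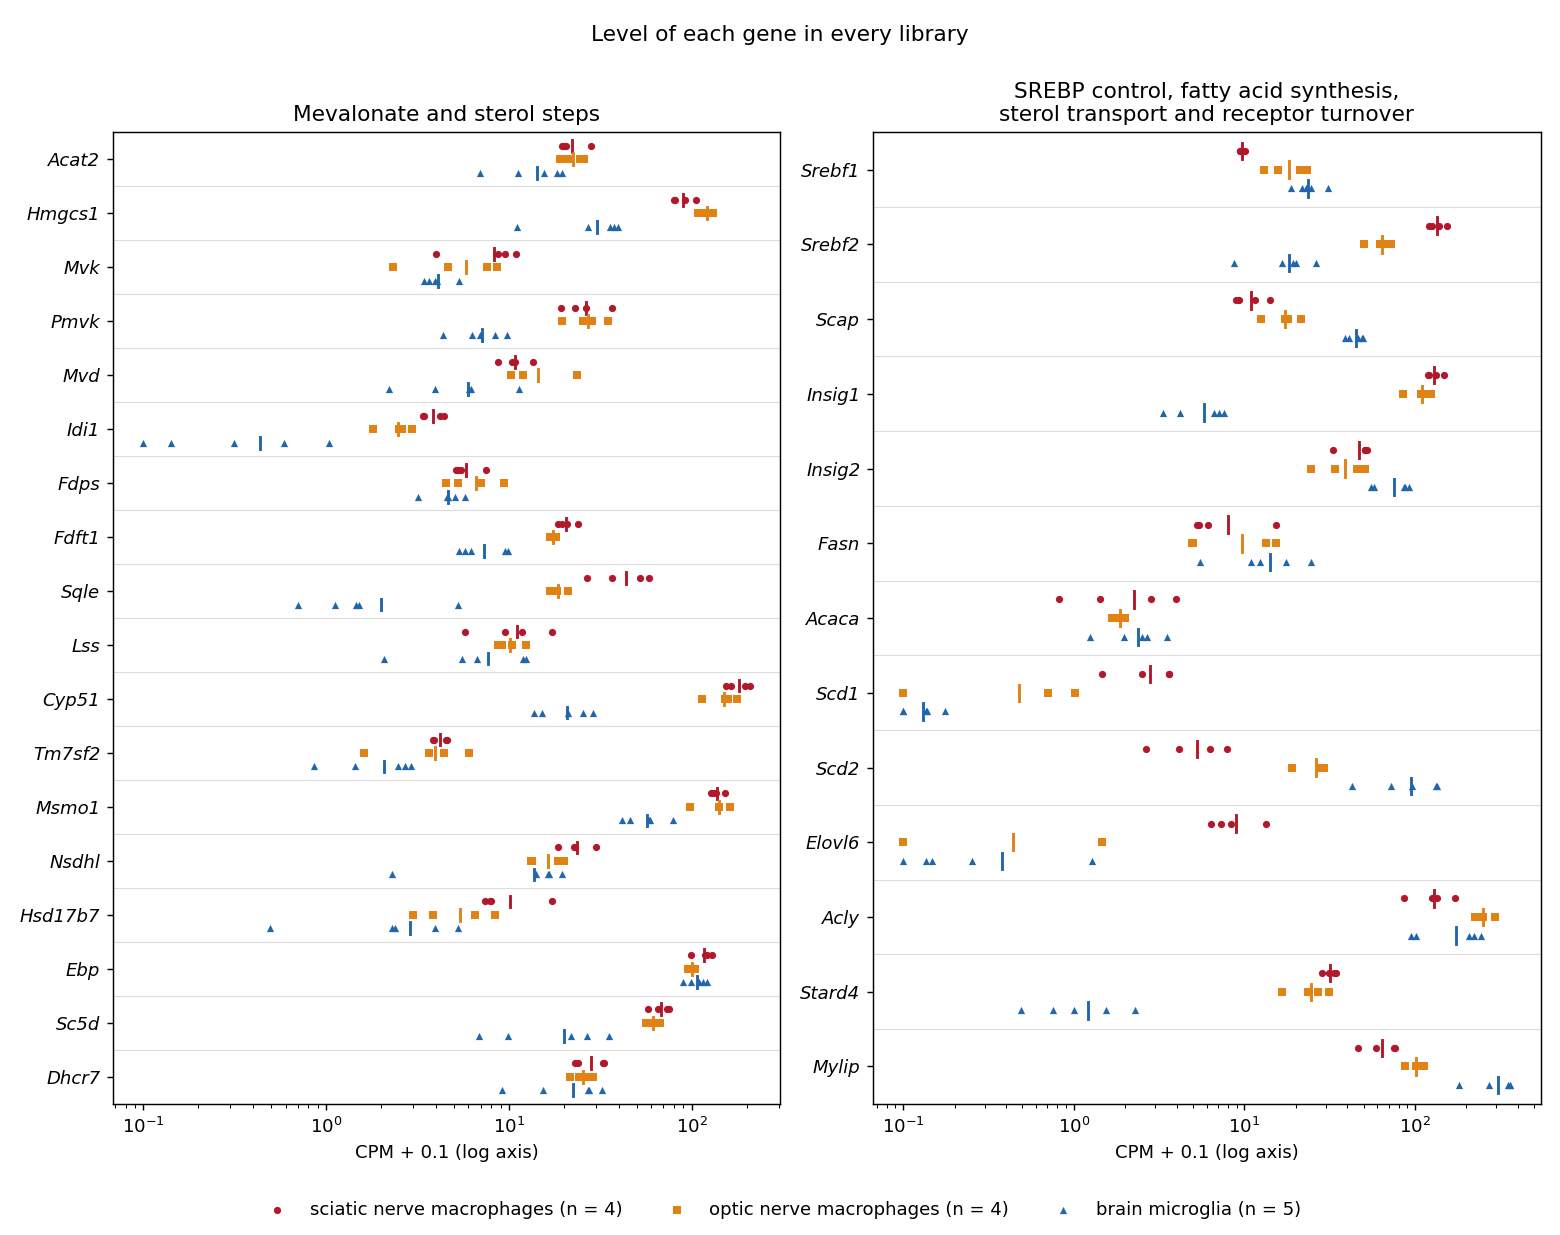
Level of each of the 31 members in every library, in CPM plus 0.1 on a horizontal log axis. In the row of each gene, sciatic nerve is drawn at the top, then optic nerve, then brain. Each point is a library and each short line is the mean of a tissue, over 4, 4 and 5 libraries. Insig1, Stard4, Cyp51 and Sqle lie well right of brain (higher) in both nerves, and Scd2, Mylip and Scap lie left of it (lower).

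The difference in the cholesterol genes also showed in their mean level per library. The mean log2 CPM of the 11 sterol-step members was 5.02 ± 0.19 in sciatic nerve, 4.67 ± 0.13 in optic nerve and 3.36 ± 0.46 in brain (SD over 4, 4 and 5 libraries). For the 7 mevalonate-step members it was 3.78 ± 0.16 in sciatic nerve, 3.75 ± 0.22 in optic nerve and 2.32 ± 0.43 in brain. No library of either nerve overlapped brain on these measures: the lowest nerve library had a mean of 4.51 for sterol steps and the highest brain library 3.76. For the 6 fatty acid members the mean was 2.92 ± 0.13 in sciatic nerve, 2.10 ± 0.42 in optic nerve and 2.27 ± 0.33 in brain, and the optic nerve and brain libraries overlapped. These means give genes at low and high levels equal weight. In 2 groups of members the mean level and the median fold change of sciatic nerve over brain differed in sign. The 5 SREBP control members had a mean log2 CPM of 5.26 ± 0.05 in sciatic nerve, 5.24 ± 0.22 in optic nerve and 4.56 ± 0.26 in brain, but a median log2 fold change of -0.70. The fatty acid members had a higher mean level and a median of -0.25.

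**Figure D2:**
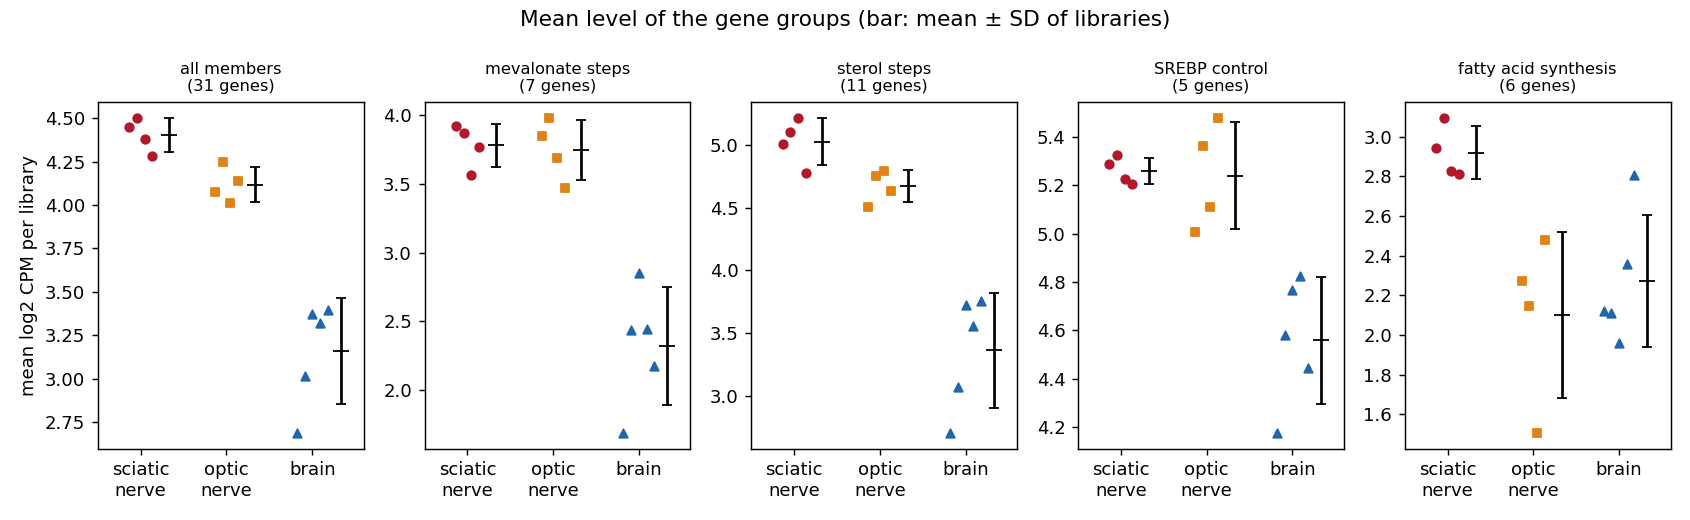
Mean log2 CPM of the members in each library, for all 31 members and for 4 of their role groups, with sciatic nerve left of optic nerve and brain. Points are libraries and bars give the mean ± SD. Both nerves lie above brain without overlap for the mevalonate and sterol steps, and not for fatty acid synthesis.

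Of the 7 enzymes that lead from acetyl-CoA to farnesyl diphosphate, Hmgcs1, Pmvk and Idi1 were higher in both nerves than in brain. Mvd was higher in optic nerve, and none was lower in either nerve. Against brain, 24.1% of all tested genes were higher in sciatic nerve and 19.6% in optic nerve. Hmgcs1, the cytosolic synthase that makes HMG-CoA, had 80.2, 92.2, 106 and 81.1 CPM in the 4 sciatic nerve libraries, 124, 131, 108 and 120.4 CPM in optic macrophages and 11.03, 27.1, 39.6, 35.8 and 37.4 CPM in microglia. All 8 nerve libraries lay above all 5 brain libraries, and optic nerve lay above sciatic nerve without overlap. Hmgcs1 was higher than in brain in sciatic nerve (log2 fold change 1.57, SE 0.27, adjusted p = 0.000248) and in optic nerve (log2 fold change 2.00, SE 0.27, adjusted p = 5.52e-05), and its difference between the nerves did not pass the test (log2 fold change -0.43, SE 0.29, adjusted p = 0.336).

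Pmvk, the kinase that adds the second phosphate to mevalonate, had 36.4, 26.3, 19.1 and 22.9 CPM in sciatic macrophages, 25.3, 34.6, 28.5 and 19.5 CPM in optic macrophages and 9.67, 4.24, 6.86, 6.17 and 8.31 CPM in microglia. Every nerve library was above every brain library, and the nerves overlapped. Pmvk was higher than in brain in sciatic nerve (log2 fold change 1.90, SE 0.28, adjusted p = 5.48e-05) and in optic nerve (log2 fold change 1.94, SE 0.28, adjusted p = 8.54e-05). Idi1, the isomerase of isopentenyl diphosphate, was low throughout, at 3.27, 4.08, 4.32 and 3.33 CPM in sciatic macrophages, 2.42, 2.85, 2.51 and 1.72 CPM in optic macrophages and 0, 0.214, 0.933, 0.492 and 0.0418 CPM in microglia. All sciatic nerve libraries lay above all optic nerve libraries, and these above brain. In brain Idi1 was counted 0, 6, 20, 13 and 1 times. It passed the filter on low counts only through the nerve libraries, where it was higher, and its calls are included in the member counts above. Idi1 was higher than in brain in sciatic nerve (log2 fold change 3.43, SE 0.84, adjusted p = 0.00369) and in optic nerve (log2 fold change 2.78, SE 0.83, adjusted p = 0.0167), and without brain replicate 3 these log2 fold changes were 4.21 and 3.55.

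Mvd, the decarboxylase that makes isopentenyl diphosphate, had 10.1, 11.9, 23.4 and 11.8 CPM in optic macrophages and 2.12, 5.94, 11.2, 6.13 and 3.84 CPM in microglia, with optic nerve replicate 3 apart from the others. It was higher in optic nerve than in brain (log2 fold change 1.29, SE 0.42, adjusted p = 0.0252). This call was lost without optic nerve replicate 3 (log2 fold change 0.95, adjusted p = 0.115) and without brain replicate 5 (log2 fold change 1.17, adjusted p = 0.0568). In sciatic nerve Mvd had 8.57 to 13.5 CPM, and its difference from brain did not pass the test (log2 fold change 0.88, SE 0.42, adjusted p = 0.0955). It did without brain replicate 3 (log2 fold change 1.24, adjusted p = 0.02). Acat2, the cytosolic acetoacetyl-CoA thiolase, ranged over 19.5 to 28.1 CPM in sciatic macrophages, 18.9 to 25.6 CPM in optic macrophages and 6.87 to 19.4 CPM in microglia. Its log2 fold changes over brain of 0.63 in sciatic nerve and 0.66 in optic nerve did not pass the test (adjusted p = 0.0731 and 0.0754). Without brain replicate 2 they passed (adjusted p = 0.039 and 0.0421). Mevalonate kinase, Mvk, ranged over 3.89 to 10.8 CPM in sciatic macrophages, 2.23 to 8.56 CPM in optic macrophages and 3.33 to 5.27 CPM in microglia. Its sciatic nerve value over brain (log2 fold change 1.03, SE 0.43, adjusted p = 0.0603) passed the test without sciatic nerve replicate 3 (adjusted p = 0.0289) or optic nerve replicate 3 (adjusted p = 0.0362). Fdps, which makes farnesyl diphosphate, showed the smallest differences of the group, at 5.04 to 7.39 CPM in sciatic macrophages, 4.44 to 9.36 CPM in optic macrophages and 3.07 to 5.66 CPM in microglia. It had log2 fold changes over brain of 0.34 (95% interval -0.41 to 1.10) in sciatic nerve and 0.51 (-0.24 to 1.27) in optic nerve. Exon bases shared with another annotated gene made up 26.7% of Fdps, 12.1% of Hmgcs1 and 9.22% of Idi1, and the sources do not say whether counting used strand.

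Of the 11 enzymes from squalene synthase to cholesterol, 6 were higher in sciatic nerve than in brain (Fdft1, Sqle, Cyp51, Msmo1, Hsd17b7 and Sc5d), the same genes without Hsd17b7 were higher in optic nerve, and none was lower in either. Sqle, squalene epoxidase and a rate-limiting step of the sterol branch, had 36.6, 52.3, 58.1 and 26.6 CPM in sciatic macrophages, 20.8, 18.2, 18.2 and 16.6 CPM in optic macrophages and 5.14, 1.35, 1.03, 0.606 and 1.42 CPM in microglia. The 3 tissues did not overlap, and the highest brain value was that of replicate 1. Sqle was higher than in brain in sciatic nerve (log2 fold change 4.56, SE 0.51, adjusted p = 3.14e-06) and in optic nerve (log2 fold change 3.33, SE 0.49, adjusted p = 9.91e-05). Without brain replicate 1 these log2 fold changes were 5.29 and 4.06.

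Cyp51, the lanosterol demethylase, had 165, 197, 209 and 153 CPM in sciatic macrophages, 113, 176, 158 and 152 CPM in optic macrophages and 13.7, 15.2, 21.1, 28.8 and 25.3 CPM in microglia. The lowest nerve library was far above the highest brain library, and the nerves overlapped. Cyp51 was higher than in brain in sciatic nerve (log2 fold change 3.12, SE 0.23, adjusted p = 3.06e-08) and in optic nerve (log2 fold change 2.85, SE 0.22, adjusted p = 1.64e-07). Msmo1, the sterol C4-methyl oxidase that acts after it, had 130.1, 136, 152 and 128 CPM in sciatic macrophages, 163, 163, 141 and 97.5 CPM in optic macrophages and 41.5, 45.7, 58.4, 79.2 and 59.1 CPM in microglia. No nerve library reached down to the brain range. Msmo1 was higher than in brain in sciatic nerve (log2 fold change 1.27, SE 0.20, adjusted p = 9.89e-05) and in optic nerve (log2 fold change 1.31, SE 0.20, adjusted p = 0.000135).

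Sc5d, the lathosterol oxidase, had 72.8, 57.6, 75.4 and 65.4 CPM in sciatic macrophages, 63.7, 56.3, 66.7 and 58.2 CPM in optic macrophages and 6.80, 9.75, 21.6, 26.5 and 35.1 CPM in microglia. Brain varied by library, and the nerves overlapped above it. Sc5d was higher than in brain in sciatic nerve (log2 fold change 1.76, SE 0.36, adjusted p = 0.000923) and in optic nerve (log2 fold change 1.61, SE 0.36, adjusted p = 0.00285). Fdft1, squalene synthase, had 18.5 to 23.8 CPM in sciatic macrophages, 16.6 to 17.9 CPM in optic macrophages and 5.23 to 9.79 CPM in microglia. It was higher than in brain in sciatic nerve (log2 fold change 1.50, SE 0.24, adjusted p = 0.000133) and in optic nerve (log2 fold change 1.25, SE 0.24, adjusted p = 0.00106). Of the exon bases of Fdft1, 18.3% are shared with the opposite strand of Ctsb, a cathepsin gene at 10611 ± 708 CPM in sciatic macrophages, 7589 ± 399.7 CPM in optic macrophages and 3999.7 ± 852 CPM in microglia (SD, n = 4, 4 and 5). Its part in the Fdft1 counts was not tested. Hsd17b7, a sterol ketoreductase, had 7.26, 7.89, 17.2 and 7.79 CPM in sciatic macrophages, 2.90 to 8.28 CPM in optic macrophages and 2.19, 0.391, 3.82, 2.27 and 5.14 CPM in microglia. Replicate 3 was well above the other sciatic nerve libraries. Hsd17b7 was higher in sciatic nerve than in brain (log2 fold change 1.86, SE 0.59, adjusted p = 0.0169). This call was lost without sciatic nerve replicate 3 (log2 fold change 1.47, adjusted p = 0.0722).

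The other 5 sterol enzymes did not pass the test in any comparison. Lanosterol synthase, Lss, ranged over 5.66 to 17.02 CPM in sciatic macrophages, 8.64 to 12.3 CPM in optic macrophages and 1.96 to 12.4 CPM in microglia. The sterol reductase Tm7sf2 ranged over 3.73 to 4.46 CPM in sciatic macrophages, 1.51 to 5.98 CPM in optic macrophages and 0.755 to 2.80 CPM in microglia. Nsdhl, which removes C4 carboxyl groups, ranged over 18.5 to 29.95 CPM in sciatic macrophages, 13.2 to 20.04 CPM in optic macrophages and 2.19 to 19.5 CPM in microglia. The sterol isomerase Ebp was the flattest of them, at 117 ± 12.9 CPM in sciatic macrophages, 99.7 ± 5.02 CPM in optic macrophages and 107 ± 12.6 CPM in microglia (SD, n = 4, 4 and 5). Its log2 fold change over brain was 0.13 (95% interval -0.15 to 0.41) in sciatic nerve and -0.10 (-0.38 to 0.19) in optic nerve, intervals that exclude a 2-fold difference. Dhcr7, the last reductase of the pathway, had 23.04 to 32.8 CPM in sciatic macrophages, 21.6 to 28.8 CPM in optic macrophages and 9.07 to 32.2 CPM in microglia. It had log2 fold changes over brain of 0.34 (-0.31 to 0.99) in sciatic nerve and 0.18 (-0.47 to 0.83) in optic nerve. Across both branches of the pathway, 3 mevalonate and 6 sterol enzymes passed the test in sciatic nerve against brain, and 4 mevalonate and 5 sterol enzymes in optic nerve against brain.

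**Figure D3:**
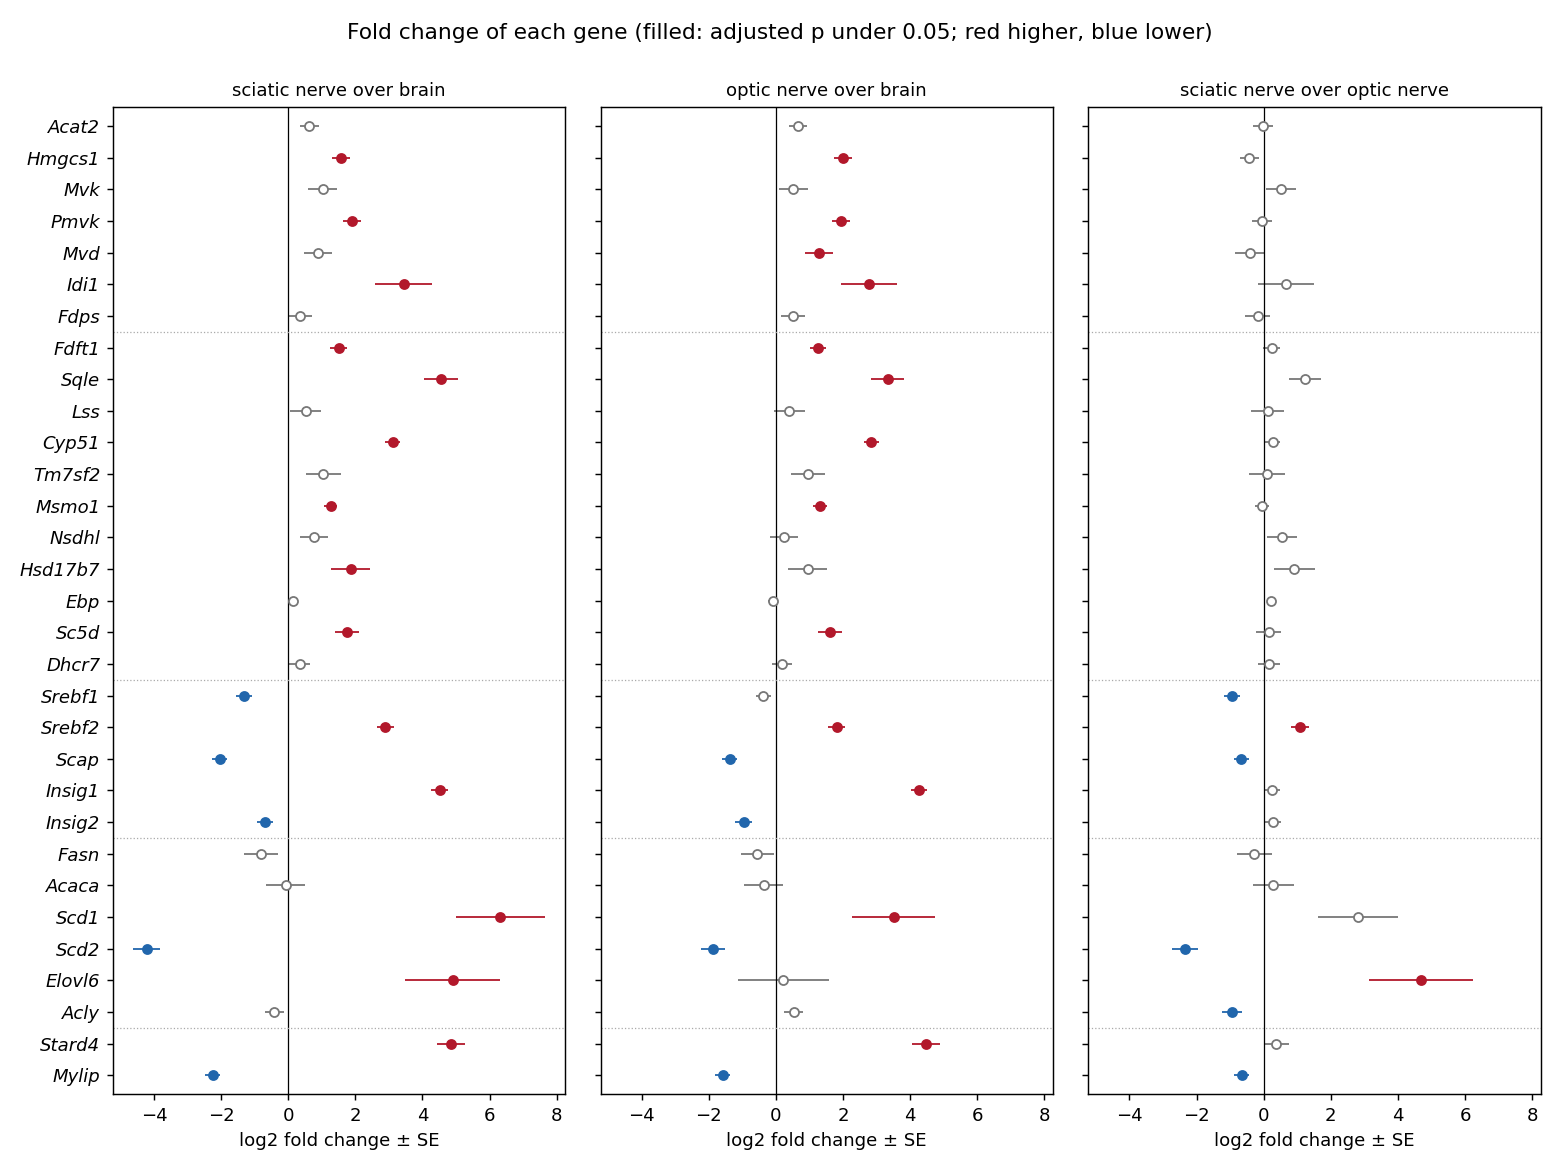
Log2 fold change of each member in sciatic nerve over brain, optic nerve over brain and sciatic nerve over optic nerve, with bars of 1 SE from edgeR. Filled points have an adjusted p below 0.05. All filled points of the mevalonate and sterol steps lie right of 0 against brain, while the SREBP control and fatty acid groups hold filled points on both sides.

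The SREBP control genes split in both nerves: Srebf2 and Insig1 were higher than in brain, while Scap and Insig2 were lower, and Srebf1 was lower in sciatic nerve. Srebf2, whose product drives cholesterol synthesis genes, had 155, 126, 138 and 121 CPM in sciatic macrophages, 50.2, 72.7, 69.05 and 62.2 CPM in optic macrophages and 8.54, 16.6, 20.1, 26.1 and 19.1 CPM in microglia. The 3 tissues did not overlap. Srebf2 was higher in sciatic nerve than in brain (log2 fold change 2.89, SE 0.25, adjusted p = 2.08e-07), higher in optic nerve than in brain (log2 fold change 1.81, SE 0.24, adjusted p = 4.69e-05) and higher in sciatic nerve than in optic nerve (log2 fold change 1.08, SE 0.26, adjusted p = 0.00618).

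Srebf1, whose product leans to fatty acid genes, ran the other way, with 9.35, 9.27, 9.57 and 9.93 CPM in sciatic macrophages, 12.9, 21.2, 15.6 and 23.1 CPM in optic macrophages and 18.6, 22.96, 30.6, 24.3 and 21.6 CPM in microglia. All sciatic nerve libraries lay below all others, and optic nerve overlapped brain. Srebf1 was lower in sciatic nerve than in brain (log2 fold change -1.31, SE 0.23, adjusted p = 0.000307) and than in optic nerve (log2 fold change -0.93, SE 0.24, adjusted p = 0.0109), and its value in optic nerve over brain did not pass the test (log2 fold change -0.38, SE 0.23, adjusted p = 0.207). The ratio of Srebf2 to Srebf1 CPM within a library was 16.5, 13.6, 14.4 and 12.1 in sciatic nerve, 3.88, 3.43, 4.42 and 2.69 in optic nerve and 0.459, 0.722, 0.654, 1.07 and 0.882 in brain. The tissues did not overlap on this ratio, which is compared here only between tissues, since CPM are not divided by gene length. The counts do not separate the Srebf1 isoforms.

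Insig1, a sterol sensor that is itself a target of SREBP, had 132, 149, 118 and 119.8 CPM in sciatic macrophages, 85.1, 120.0, 108 and 124 CPM in optic macrophages and 4.08, 7.44, 6.996, 6.55 and 3.22 CPM in microglia. The nerves overlapped, far above brain. Insig1 was higher than in brain in sciatic nerve (log2 fold change 4.51, SE 0.25, adjusted p = 1.28e-09) and in optic nerve (log2 fold change 4.26, SE 0.25, adjusted p = 5.24e-09), and between the nerves its log2 fold change was 0.25 (95% interval -0.25 to 0.75, adjusted p = 0.511). Insig2, the paralog with the same role, had 52.2, 50.8, 32.8 and 50.6 CPM in sciatic macrophages, 33.9, 50.7, 24.4 and 45.7 CPM in optic macrophages and 57.7, 55.3, 87.5, 91.7 and 85.6 CPM in microglia. Every nerve library lay below every brain library. Insig2 was lower than in brain in sciatic nerve (log2 fold change -0.70, SE 0.24, adjusted p = 0.0276) and in optic nerve (log2 fold change -0.97, SE 0.24, adjusted p = 0.00665). The sciatic nerve call was lost without sciatic nerve replicate 3 (log2 fold change -0.56, adjusted p = 0.0906) and without brain replicate 3, 4 or 5 (adjusted p = 0.0574, 0.0612 and 0.055). Within a library the ratio of Insig1 to Insig2 CPM was 2.54, 2.92, 3.60 and 2.37 in sciatic nerve, 2.51, 2.37, 4.42 and 2.70 in optic nerve and 0.0707, 0.134, 0.0800, 0.0714 and 0.0376 in brain. Both nerves were above brain on this ratio without overlap.

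Scap, the escort of the SREBPs, had 8.83, 11.4, 14.04 and 9.19 CPM in sciatic macrophages, 17.9, 12.4, 17.1 and 21.5 CPM in optic macrophages and 49.4, 49.1, 38.7, 46.4 and 41.1 CPM in microglia. Brain was above both nerves without overlap, and the nerves overlapped. Scap was lower than in brain in sciatic nerve (log2 fold change -2.05, SE 0.22, adjusted p = 2.07e-06) and in optic nerve (log2 fold change -1.38, SE 0.21, adjusted p = 0.000154). It was also lower in sciatic nerve than in optic nerve (log2 fold change -0.66, SE 0.22, adjusted p = 0.0419). This call was lost without sciatic nerve replicate 1, 2 or 4, optic nerve replicate 1, 3 or 4, or brain replicate 3, 4 or 5 (adjusted p = 0.0518 to 0.121, log2 fold change -0.69 to -0.54). Of the exon bases of Scap, 13.2% are shared with genes on the opposite strand.

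The 6 fatty acid genes did not move as a block: Scd1 and Elovl6 were higher in sciatic nerve than in brain, Scd2 was lower, and Acly, Acaca and Fasn did not pass the test. In optic nerve against brain Scd1 was higher, Scd2 was lower and the other 4 did not pass. Scd1 and Elovl6 passed the filter on low counts only through the sciatic nerve libraries, where they were high. Their calls as higher in sciatic nerve are included in the member counts above. Scd2, a stearoyl-CoA desaturase of brain, had 4.05, 7.82, 6.19 and 2.53 CPM in sciatic macrophages, 29.2, 28.1, 18.8 and 28.3 CPM in optic macrophages and 42.7, 72.5, 95.5, 132 and 134 CPM in microglia. The 3 tissues did not overlap. Scd2 was lower than in brain in sciatic nerve (log2 fold change -4.21, SE 0.40, adjusted p = 6.28e-07) and in optic nerve (log2 fold change -1.87, SE 0.35, adjusted p = 0.000941), and lower in sciatic nerve than in optic nerve (log2 fold change -2.34, SE 0.38, adjusted p = 0.000346).

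Scd1, its paralog and an LXR and SREBP target in liver, was near the limit of counting, at 2.42, 3.53, 1.37 and 3.53 CPM in sciatic macrophages, 0.604, 0.914, 0 and 0 CPM in optic macrophages and 0.0755, 0.0356, 0, 0.0379 and 0 CPM in microglia. It was counted 160 times in the 4 sciatic nerve libraries, 29 times in optic nerve replicates 1 and 2 and 0 times in replicates 3 and 4, and 3 times in the 5 brain libraries. These counts give a ratio of 102.9 in sciatic nerve over brain (exact 95% interval 34.58 to 504.2) and 14.92 in optic nerve over brain (4.626 to 76.56), intervals that cover counting error only. The adjusted p was 0.00113 in sciatic nerve and 0.0375 in optic nerve. The optic nerve call was lost without sciatic nerve replicate 1, 2 or 4, optic nerve replicate 1 or 2, or brain replicate 2, 3, 4 or 5 (adjusted p = 0.0507 to 0.139), and without optic nerve replicate 2 the fitted log2 fold change was 2.64 in place of 3.51. The sources do not say how reads shared by Scd1 and Scd2 were counted.

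Elovl6, the elongase of saturated chains, had 7.19, 13.4, 6.26 and 8.26 CPM in sciatic macrophages, 0, 0, 0 and 1.36 CPM in optic macrophages and 0, 0.0356, 0.0466, 0.151 and 1.17 CPM in microglia. In optic nerve all its counts came from replicate 4, and in brain most came from replicate 5, so that sciatic nerve was the only tissue where every library held it at 6.26 CPM or more. Elovl6 was higher in sciatic nerve than in brain (log2 fold change 4.90, SE 1.42, adjusted p = 0.0105), with a log2 fold change of 6.96 without brain replicate 5. It was higher in sciatic nerve than in optic nerve (log2 fold change 4.68, SE 1.55, adjusted p = 0.0427). This call was lost without any one sciatic nerve library or optic nerve replicate 1, 2 or 3 (adjusted p = 0.0668 to 0.0937) and the value was larger without optic nerve replicate 4 (log2 fold change 10.38). limma-voom gave 6.03 and 6.88 for these log2 fold changes. Between optic nerve and brain its direction depended on single libraries: the log2 fold change of 0.22 became -5.48 without optic nerve replicate 4 (edgeR adjusted p = 0.046).

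Acly, which makes cytosolic acetyl-CoA from citrate, had 126, 134, 172 and 85.9 CPM in sciatic macrophages, 231, 249, 294 and 225 CPM in optic macrophages and 94.8, 101, 207, 243 and 221 CPM in microglia. Sciatic nerve lay below optic nerve without overlap, and brain spanned both, with replicates 1 and 2 at its low end. Acly was lower in sciatic nerve than in optic nerve (log2 fold change -0.95, SE 0.30, adjusted p = 0.0317). This call was lost without sciatic nerve replicate 1, 2 or 4 or optic nerve replicate 1, 2 or 3 (adjusted p = 0.0508 to 0.0991). Acaca, acetyl-CoA carboxylase, was low, at 0.720 to 3.86 CPM in sciatic macrophages, 1.56 to 1.88 CPM in optic macrophages and 1.14 to 3.40 CPM in microglia. Fasn, fatty acid synthase, ranged over 5.19 to 15.2 CPM in sciatic macrophages, 4.84 to 15.3 CPM in optic macrophages and 5.36 to 24.3 CPM in microglia. Its log2 fold change over brain was -0.82 (95% interval -1.90 to 0.26) in sciatic nerve and -0.55 (-1.62 to 0.52) in optic nerve, intervals that leave a difference of either sign possible.

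Stard4 and Mylip, which act in sterol transport and in receptor turnover, moved in opposite directions. Stard4, a carrier that moves sterol between membranes, had 34.3, 31.2, 28.5 and 33.2 CPM in sciatic macrophages, 23.5, 31.1, 26.96 and 16.5 CPM in optic macrophages and 1.44, 0.391, 0.653, 0.909 and 2.17 CPM in microglia. Its lowest nerve library was several times its highest brain library. Stard4 was higher than in brain in sciatic nerve (log2 fold change 4.85, SE 0.41, adjusted p = 1.69e-07) and in optic nerve (log2 fold change 4.47, SE 0.41, adjusted p = 7.91e-07), and between the nerves its log2 fold change was 0.38 (95% interval -0.43 to 1.18). Mylip, the LXR-driven ubiquitin ligase that limits sterol uptake, had 75.4, 76.2, 45.9 and 58.8 CPM in sciatic macrophages, 101, 113, 87.8 and 103 CPM in optic macrophages and 181, 273, 361, 349 and 361 CPM in microglia. The 3 tissues did not overlap. Mylip was lower than in brain in sciatic nerve (log2 fold change -2.25, SE 0.22, adjusted p = 9.42e-07) and in optic nerve (log2 fold change -1.59, SE 0.22, adjusted p = 5.25e-05). It was lower in sciatic nerve than in optic nerve (log2 fold change -0.66, SE 0.22, adjusted p = 0.0453). This call was lost without sciatic nerve replicate 3 or 4, any one optic nerve library, or brain replicate 3 or 4 (adjusted p = 0.0502 to 0.135).

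Between sciatic and optic nerve none of the 18 mevalonate and sterol enzymes passed the test in the fit over all 13 libraries. Of all tested genes, 21.8% passed it in either direction. The widths of the intervals differed among the enzymes. Msmo1 had a log2 fold change of -0.05 (95% interval -0.49 to 0.40), Cyp51 0.27 (-0.22 to 0.75) and Sc5d 0.15 (-0.65 to 0.94), so that for these a difference of 2-fold lies outside the interval. For Mvk (-0.46 to 1.49), Hsd17b7 (-0.40 to 2.23) and Idi1 (-1.12 to 2.44) it does not. Sqle showed no overlap between the nerves, and its log2 fold change of 1.23 had an interval of 0.21 to 2.25 and an adjusted p of 0.0814. Without brain replicate 1, which entered the shared estimate of the spread, the adjusted p was 0.0045 for Sqle (log2 fold change 1.23) and 0.0441 for Hmgcs1 (log2 fold change -0.43). In a fit of only the nerve libraries it was 0.00352 for Sqle and 0.0229 for Hmgcs1. Sqle also passed with DESeq2 (adjusted p = 0.0419) and limma-voom (adjusted p = 0.0052), so its side of the threshold depends on the fit. The members that passed the test between the nerves in the fit over all 13 libraries were Srebf2 and Elovl6, higher in sciatic nerve, and Srebf1, Scap, Acly, Scd2 and Mylip, lower in it. Of these 7, the calls of Srebf2, Srebf1 and Scd2 held when each library was left out in turn, and those of the other 4 were lost in at least 1 such fit.

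Brain libraries varied more than nerve libraries in the mean level over all members, though not in every role group. The SD of the mean log2 CPM over all 31 members was 0.30 in brain, against 0.10 in sciatic nerve and 0.10 in optic nerve. For the 6 fatty acid members it was 0.42 in optic nerve and 0.33 in brain. Brain replicate 1 was the lowest of the 5 for 18 members (58.1%), against 36.3% of all tested genes. Nsdhl had 2.19 CPM in replicate 1, against 13.9 to 19.5 CPM in the other 4 brain libraries. For Sc5d and Acly, replicates 1 and 2 were both below the other 3. Sqle went against this, with its highest brain value in replicate 1. Without brain replicates 1 and 2 the members called were 14 higher and 6 lower in sciatic nerve over brain, 13 higher and 4 lower in optic nerve over brain, and 3 higher and 6 lower in sciatic nerve over optic nerve. The gene added to the lower calls in sciatic nerve over brain was Acly (log2 fold change -0.79, adjusted p = 0.00363).

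Genes that act with the members but are not among them were read from 3 further lists. The first held 21 tested genes of sterol synthesis, transport and SREBP processing. Against brain, 5 of them rose and 5 fell in sciatic nerve (median log2 fold change -0.03), and 4 rose and 5 fell in optic nerve (median -0.17). Against optic nerve, 2 rose and 3 fell in sciatic nerve (median -0.04). These are 23.8% higher and 23.8% lower in sciatic nerve over brain, 19% and 23.8% in optic nerve over brain and 9.52% and 14.3% in sciatic nerve over optic nerve. Over all tested genes the shares were 24.1% and 24.3%, 19.6% and 17.4%, and 10.9% and 10.9% in these comparisons, so the list lay near them. Acat1, the mitochondrial thiolase, had 318, 303, 259 and 243 CPM in sciatic macrophages, 115, 113, 106 and 99.6 CPM in optic macrophages and 63.99, 61.2, 89.4, 89.9 and 71.5 CPM in microglia. It was higher in sciatic nerve than in brain (log2 fold change 1.90, SE 0.15, adjusted p = 9.06e-08) and than in optic nerve (log2 fold change 1.37, adjusted p = 1.58e-05). Rnf139, a ubiquitin ligase of the endoplasmic reticulum, had 44.2 to 72.8 CPM in sciatic macrophages, 40.01 to 59.2 CPM in optic macrophages and 86.1 to 218 CPM in microglia. It was lower in both nerves (log2 fold change over brain -1.62 and -1.72, adjusted p = 0.000187 and 0.000209). Mbtps2, one of the proteases that cut SREBP, was lower in sciatic nerve than in brain (log2 fold change -1.54, adjusted p = 0.00437). Rnf145, a ubiquitin ligase linked to Scap, had 96.1 to 169 CPM in sciatic macrophages, 27.4 to 38.8 CPM in optic macrophages and 79.6 to 169.6 CPM in microglia. It was lower in optic nerve than in brain (log2 fold change -2.03, adjusted p = 1.25e-05) and higher in sciatic nerve than in optic nerve (log2 fold change 2.01, adjusted p = 2.31e-05). Pdss1, a prenyl diphosphate synthase subunit of coenzyme Q synthesis, was higher in optic nerve than in brain (log2 fold change 1.45, adjusted p = 0.0222). Between the nerves, Mbtps1, the other protease that cuts SREBP, was lower in sciatic nerve (log2 fold change -0.75, adjusted p = 0.0347).

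The second list held 25 tested genes of fatty acid and glycerolipid synthesis outside the members. Against brain, 7 of them rose and 6 fell in sciatic nerve (median log2 fold change 0.09), and 3 rose and 6 fell in optic nerve (median 0.06). Against optic nerve, 3 rose and 3 fell in sciatic nerve (median 0.01). These are 28% higher and 24% lower in sciatic nerve over brain (24.1% and 24.3% of all tested genes), 12% and 24% in optic nerve over brain (19.6% and 17.4%) and 12% and 12% between the nerves (10.9% and 10.9%). Thrsp, a lipogenic factor, had 0, 0.208, 0.936 and 0.799 CPM in sciatic macrophages, 46.7, 51.3, 51.2 and 46.7 CPM in optic macrophages and 93.98, 127, 60.7, 50.7 and 55.6 CPM in microglia. Sciatic nerve lay below both others without overlap (log2 fold change over brain -7.31, over optic nerve -6.65, adjusted p = 7.28e-08 and 5.51e-07). Mlxipl, the carbohydrate-sensing activator of lipogenic genes, had 0.133 to 3.18 CPM in sciatic macrophages, 27.1 to 39.7 CPM in optic macrophages and 25.3 to 63.8 CPM in microglia. It was lower in sciatic nerve (log2 fold change over brain -5.25, over optic nerve -5.06, adjusted p = 2.25e-05 and 8.58e-05). The desaturase gene Fads2 had 2.22, 0.415, 1.44 and 0 CPM in sciatic macrophages, 1.36, 0, 0.614 and 2.07 CPM in optic macrophages and 0 CPM in microglia. Summed over libraries it had 60 counts in sciatic nerve, 73 in optic nerve and 0 in brain. Against a floor of 3 counts over the brain group, these sums were at least 38.58-fold higher in sciatic nerve and at least 37.57-fold higher in optic nerve. These folds leave out the spread between libraries, and sciatic nerve replicate 4 and optic nerve replicate 2 held no counts. In optic nerve against brain, the triglyceride synthase Dgat2 was higher (log2 fold change 4.68, adjusted p = 0.000474) and the acyltransferase Gpam was lower (log2 fold change -2.16, adjusted p = 0.0463). The desaturase Fads1 was higher in sciatic nerve than in optic nerve (log2 fold change 1.16, adjusted p = 0.00752).

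The third list held 19 tested LXR, sterol efflux and storage genes. Against brain, 10 of them rose and 6 fell in sciatic nerve (median log2 fold change 1.17), and 9 rose and 4 fell in optic nerve (median 0.68). Against optic nerve, 8 rose and 5 fell in sciatic nerve (median 0.31). These are 52.6% higher and 31.6% lower in sciatic nerve over brain (24.1% and 24.3% of all tested genes), 47.4% and 21.1% in optic nerve over brain (19.6% and 17.4%) and 42.1% and 26.3% between the nerves (10.9% and 10.9%). Pltp, the phospholipid transfer protein, had 1660.2 to 2449.8 CPM in sciatic macrophages, 30.4 to 102 CPM in optic macrophages and 0 to 1.64 CPM in microglia. All 3 differences passed the test (log2 fold change 10.91 in sciatic nerve over brain, 5.91 in optic nerve over brain and 5.00 between the nerves, adjusted p = 9.98e-10, 3.02e-07 and 2.61e-06). Ch25h, which makes the oxysterol that binds Insig and holds SREBP back, had 214, 219, 189 and 216 CPM in sciatic macrophages, 57.7, 52.8, 97.6 and 33.3 CPM in optic macrophages and 1.66, 2.49, 0, 1.25 and 0.752 CPM in microglia. It was higher than in brain in sciatic nerve (log2 fold change 7.40, SE 0.61, adjusted p = 1.2e-07) and in optic nerve (log2 fold change 5.60, SE 0.57, adjusted p = 2.78e-06). The part of Ch25h in the members' levels was not tested. Apoe, the main carrier of cholesterol from macrophages, had 20414 to 34113 CPM in sciatic macrophages, 8573 to 11039 CPM in optic macrophages and 236 to 480.2 CPM in microglia. It was higher in sciatic nerve than in brain (log2 fold change 6.40, SE 0.25, adjusted p = 4.73e-11). Apoc1 was counted 997 times in optic nerve and 1 time in brain, a ratio of 1539 (exact 95% interval 275.6 to 60860), and was lower in sciatic nerve than in optic nerve (log2 fold change -4.76, adjusted p = 3.6e-05).

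Against brain, the exporters of cholesterol ran opposite to Apoe and Pltp. Abcg1 had 1.13 to 6.15 CPM in sciatic macrophages, 13.8 to 29.4 CPM in optic macrophages and 76.2 to 145 CPM in microglia. It was lower in both nerves than in brain (log2 fold change -5.28 and -2.37, adjusted p = 2.38e-07 and 0.000307), and lower in sciatic nerve than in optic nerve (log2 fold change -2.91, adjusted p = 0.00014). Abca1 and Lpcat3, classical LXR targets picked out after their values were seen, were also lower than in brain in both nerves. Abca1 had 84.9 to 141 CPM in sciatic macrophages, 35.7 to 70.1 CPM in optic macrophages and 229.7 to 269 CPM in microglia. It was lower in both nerves (log2 fold change over brain -1.21 and -2.35, adjusted p = 0.000293 and 1.35e-06). Lpcat3 had 25.2 to 42.3 CPM in sciatic macrophages, 108 to 138 CPM in optic macrophages and 122 to 379 CPM in microglia. Both nerves were lower (log2 fold change over brain -3.06 and -1.23, adjusted p = 6.21e-07 and 0.00259). Of the members named above as LXR targets, Mylip and Srebf1 were lower than in brain in sciatic nerve as these were. Scd1, an LXR target in liver, was higher there than in brain. Apoe and Pltp, also known LXR targets, were higher in the same libraries. Nr1h3, Lpl and Plin2, of the same list and also picked out after their values were seen, had higher means in both nerves. Mean levels in sciatic nerve, optic nerve and brain were 3.41, 2.14 and 0.215 CPM for Nr1h3. They were 495, 218 and 47.8 CPM for Lpl and 557, 189 and 46.1 CPM for Plin2. Against brain 10 genes of the list rose and 6 fell in sciatic nerve, so Abca1 and Lpcat3 do not stand for the list.

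**Figure D4:**
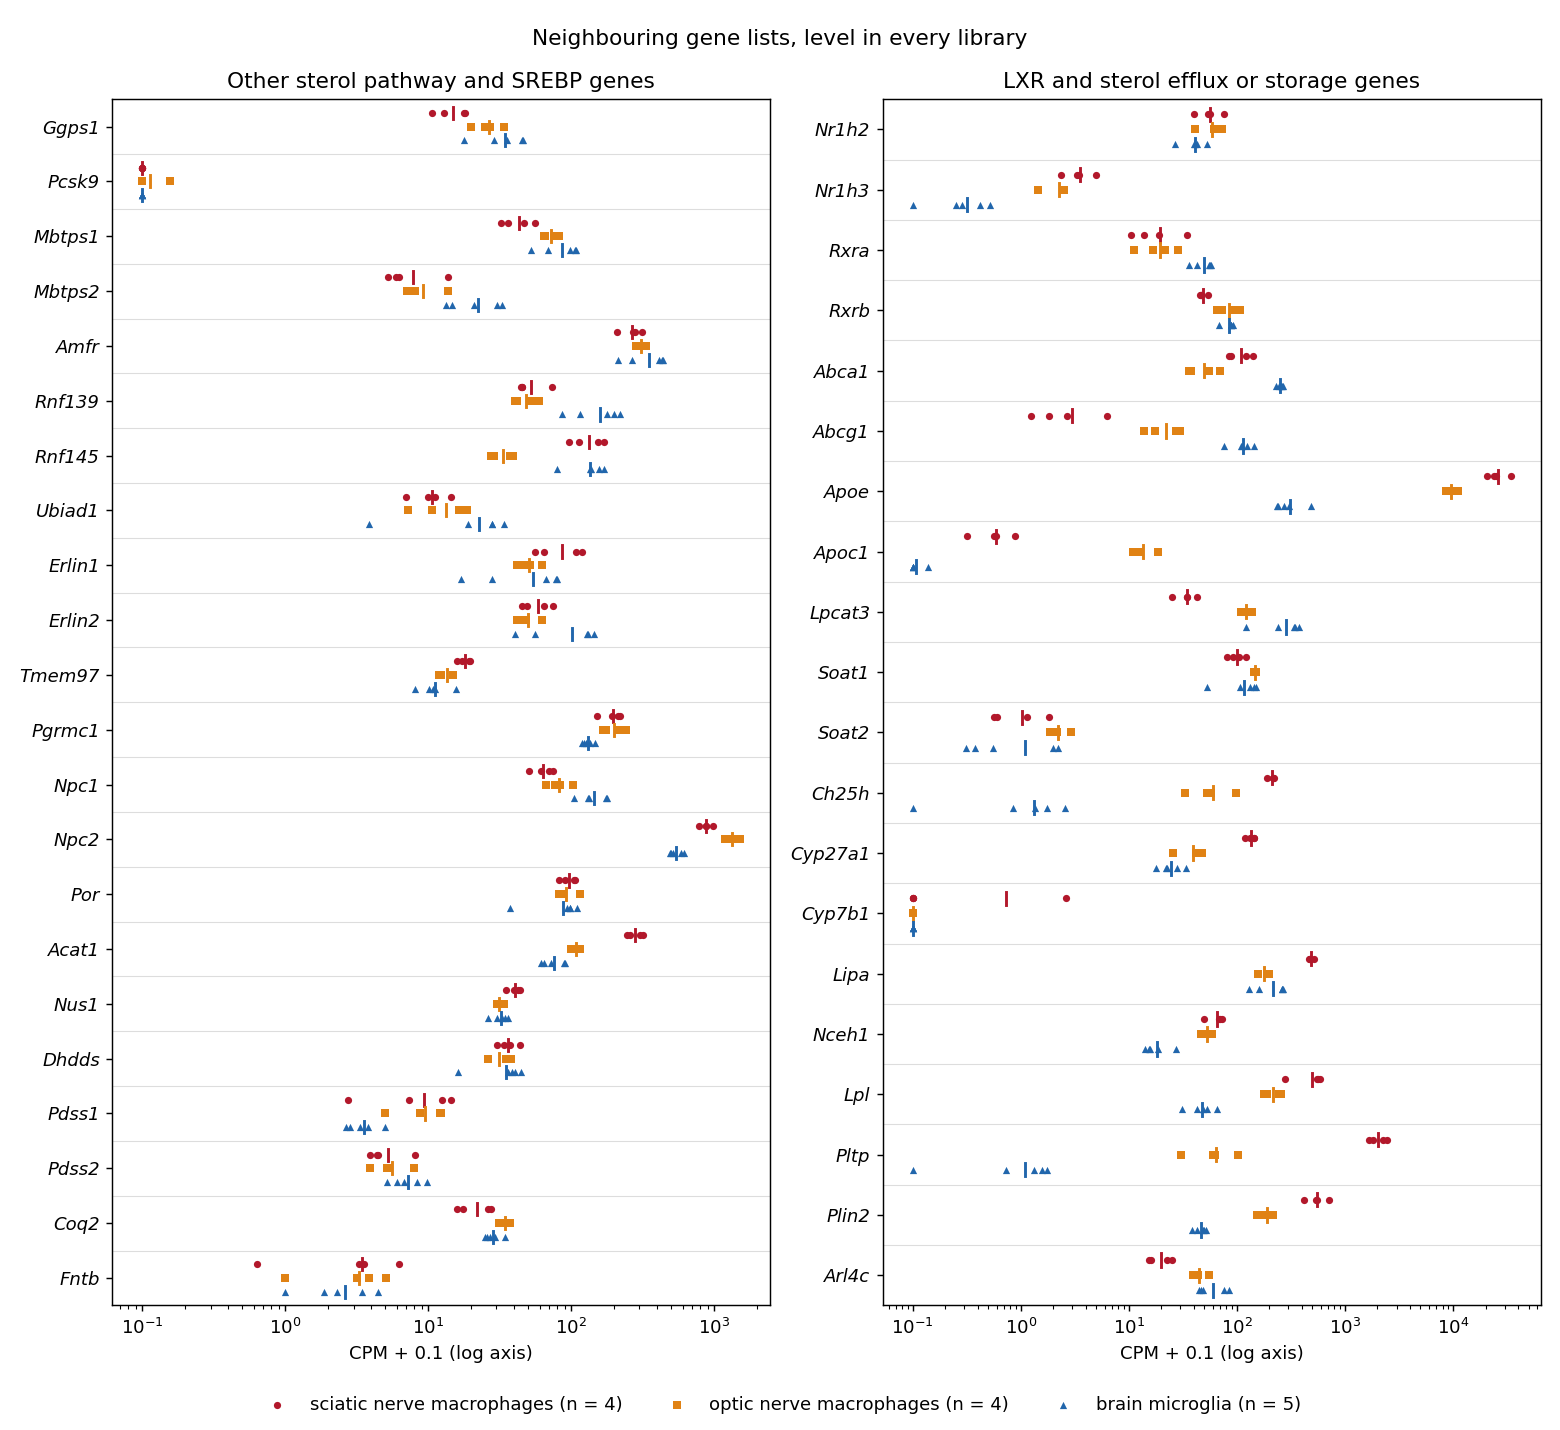
Level of the 22 other sterol pathway and SREBP genes and of the 20 LXR and sterol efflux or storage genes in every library. The horizontal log axis is CPM plus 0.1, and short lines are tissue means. In the row of each gene, sciatic nerve is drawn at the top, then optic nerve, then brain. Rnf139 lies left of brain (lower) in every library of both nerves. In the other list Apoe, Pltp and Ch25h lie right of brain (higher) while Abca1 and Abcg1 lie left of it.

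Other signals differed between the tissues along with the members. All 16 genes of a list of immediate early and cell-isolation response genes were higher in both nerves than in brain. Over all tested genes, 24.1% were higher in sciatic nerve and 19.6% in optic nerve. The 16 summed to 28666 to 33899.8 CPM in sciatic macrophages, 14441 to 18558 CPM in optic macrophages and 598 to 731 CPM in microglia. Their part in the members' levels was not tested, and no library of one tissue had the level of another. Oligodendrocyte markers, 10 genes of myelin-making cells that are rich in sterol synthesis, summed to 167 to 237 CPM in sciatic macrophages, 271 to 333 CPM in optic macrophages and 123 to 179 CPM in microglia, with Opalin at 0 in sciatic nerve and brain. Of the 7 tested against brain, 3 rose and 1 fell in sciatic nerve, where 24.1% of all tested genes rose and 24.3% fell. In optic nerve 4 rose, where 19.6% of all tested genes rose. Against optic nerve, 3 fell in sciatic nerve, where 10.9% of all tested genes fell. The part of oligodendrocyte RNA in the members' levels was not tested. Schwann cell markers, 10 genes, summed to 5.12 to 15.2 CPM in sciatic macrophages, 0.0558 to 0.699 CPM in optic macrophages and 0.167 to 1.49 CPM in microglia, with Pmp2 and Gfra3 at 0 in all 13 libraries and Sox10 at 0 in sciatic nerve.

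Adipocyte markers, 8 genes of a lipogenic cell that lies around peripheral nerve, summed to 7.96 to 17.6 CPM in sciatic macrophages, 0 to 1.45 CPM in optic macrophages and 0 to 0.302 CPM in microglia. Plin1 and Pck1 were at 0 in sciatic nerve, and Adipoq had 0.327, 1.18, 0 and 0 CPM there. Scd1 and Elovl6, which are abundant in fat, were highest in the same tissue, and the part of adipocyte RNA in their levels was not tested. Fibroblast markers, 8 genes, summed to 197 to 412 CPM in sciatic macrophages, 12.5 to 41.3 CPM in optic macrophages and 2.27 to 7.65 CPM in microglia, most of it from Gsn. This gene, which macrophages also express, had 166 to 258 CPM in sciatic macrophages, 12.2 to 37.7 CPM in optic macrophages and 2.19 to 7.37 CPM in microglia. Astrocyte markers, 8 genes, summed to 22.9 to 94.6 CPM in sciatic macrophages, 84.3 to 107 CPM in optic macrophages and 185 to 246 CPM in microglia, most of it in brain from Slc1a3 at 182 to 242 CPM, with Aqp4 at 0 in sciatic nerve. Neuron markers, 8 genes, summed to 0.138 to 1.93 CPM in sciatic macrophages, 0.223 to 1.40 CPM in optic macrophages and 1.12 to 30.7 CPM in microglia. Endothelial markers, 8 genes, summed to 1.22 to 9.46 CPM in sciatic macrophages, 12.7 to 19.4 CPM in optic macrophages and 17.5 to 49.1 CPM in microglia, with Cldn5 at 0 in all 13 libraries. The part of fibroblast, astrocyte, neuron and endothelial RNA in the members' levels was not tested.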

How the data were processed

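The authors deposited raw counts per gene for 13 bulk RNA-seq libraries in 1 table. Per the submitters' processing notes, STAR, featureCounts 1.5.1 and the mm10 genome were used. The STAR version, the strand setting and the treatment of multi-mapped reads were not given in these notes or in the labels. The deposited counts were tested in R 4.3.3 with edgeR 4.0.16: filterByExpr by tissue (13246 of 48587 genes kept), TMM scaling, a quasi-likelihood fit of tissue over all 13 libraries, and Benjamini-Hochberg adjustment over all genes kept. A gene is called at an adjusted p below 0.05. CPM use the TMM-scaled library total. Intervals on log2 fold changes are 95% intervals of the fit; for groups with 1 to 3 counts, exact intervals of the count ratio are given, and a group at 0 is set to a floor of 3 counts over the group. The fit was tested on simulated data. No 2 libraries of a tissue agreed within sampling noise. Libraries held 10877914 to 23498764 counts.

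The members and the further gene lists were chosen with earlier results of these data known. Some genes of the further list on the sterol pathway are not reported here and are left out of its counts and figure. All members are named; of each further pathway list, at most the 3 called genes with the largest log2 fold change per comparison are named, and any other is marked as picked after its values were seen. Of the role groups, up to 3 called members per comparison and all SREBP control members are given in full. Alternatives were RLE and upper quartile scaling, no filter on low counts, DESeq2 1.42.0, limma-voom (limma 3.58.1), a fit of only the 2 tissues compared, the replicate number as a block, calls of at least 2-fold, each library left out in turn, and brain replicates 1 and 2 left out together. Gene positions and exon overlaps came from the GENCODE annotation of GRCm38, promoters from RefSeq (GRCm38.p6). The microarray and single-cell data of the series were not used here.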

Additional observations from a re-analysis of the deposited data

Results flagged for a closer look

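The highest or lowest library of each tissue was compared with the nearest of the others, relative to the whole range, by Dixon's 95% critical value. Of the 93 sets of libraries tested this way (31 members in 3 tissues), 10 held a library that stood apart, where chance gives about 1 in 20. Sciatic nerve replicate 3 accounted for 3 of them and optic nerve replicate 3 for 2. In sciatic nerve, a single library was high for Acat2 in sciatic nerve replicate 4 (28.1 CPM, against 19.5 to 20.5 CPM in the other sciatic nerve libraries), Fdps in sciatic nerve replicate 1 (7.39 CPM, against 5.04 to 5.40 CPM in the other sciatic nerve libraries), Hsd17b7 in sciatic nerve replicate 3 (17.2 CPM, against 7.26 to 7.89 CPM in the other sciatic nerve libraries) and Fasn in sciatic nerve replicate 3 (15.2 CPM, against 5.19 to 5.996 CPM in the other sciatic nerve libraries). In the other tissues, a single library was high for Mvd in optic nerve replicate 3 (23.4 CPM, against 10.1 to 11.9 CPM in the other optic nerve libraries), Sqle in brain replicate 1 (5.14 CPM, against 0.606 to 1.42 CPM in the other brain libraries), Elovl6 in brain replicate 5 (1.17 CPM, against 0 to 0.151 CPM in the other brain libraries) and Elovl6 in optic nerve replicate 4 (1.36 CPM, against 0 CPM in each of the other optic nerve libraries). A single library was low for Insig2 in sciatic nerve replicate 3 (32.8 CPM, against 50.6 to 52.2 CPM in the other sciatic nerve libraries) and Scd2 in optic nerve replicate 3 (18.8 CPM, against 28.1 to 29.2 CPM in the other optic nerve libraries). The calls of Hsd17b7 and Insig2 in sciatic nerve over brain and of Mvd in optic nerve over brain depend on the library that stands apart, as given with these genes. The Elovl6 value of optic nerve rests on replicate 4 and that of brain mostly on replicate 5. The cause was not tested for any of the 10.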

How the results depend on the processing

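Same-numbered libraries of different tissues correlated at -0.0776 to 0.0773 in their deviations from the tissue means over genes, none over 0.1. Whether the replicate numbers pair the libraries cannot be told from this, as the sources do not give the mice behind each library. With the replicate number as a block, 3 in place of 5 members were lower in sciatic nerve than in optic nerve, and Insig2 in sciatic nerve over brain and Scd1 in optic nerve over brain were no longer called (edgeR adjusted p = 0.0639 and 0.177). Scap and Mylip were the calls lost between the nerves (edgeR adjusted p = 0.11 and 0.0893), and the block changed no other call of a member. Over 93 values of single members and their alternatives, 1951 in all, 1839 kept their direction and their side of the threshold, 60 lost the threshold, 19 passed it anew and 33 changed sign. None of these 33 was called in the fit over all 13 libraries, and 1 passed the threshold in its new direction: Elovl6 in optic nerve over brain without optic nerve replicate 4 (edgeR adjusted p = 0.046). The members called against brain stayed within 14 to 15 higher and 4 to 5 lower in sciatic nerve, and 11 to 13 higher and 4 to 5 lower in optic nerve, with any 1 library left out. Between the nerves, where 2 were higher and 5 lower, leaving out 1 library gave 1 to 3 higher and 2 to 6 lower. limma-voom gave 4 higher and 3 lower, RLE scaling 3 lower, no filter 3 lower, and a 2-fold minimum 1 lower. Without brain replicates 1 and 2 the log2 fold change changed sign for Dhcr7 and Acaca in sciatic nerve over brain (-0.0429 and 0.21) and for Nsdhl, Dhcr7, Fasn and Elovl6 in optic nerve over brain (-0.0279, -0.19, 0.0237 and -0.44). It did so for Elovl6 in optic nerve over brain with limma-voom (-0.85), and for Acat2 between the nerves with RLE scaling (0.0092) and DESeq2 (0.0092). With 1 library left out, log2 fold changes ranged over -0.51 to 0.21 for Acaca in sciatic nerve over brain, and over -0.0288 to 0.40 for Nsdhl, -0.0174 to 0.35 for Dhcr7 and -5.48 to 2.28 for Elovl6 in optic nerve over brain. Between the nerves they ranged over -0.17 to 0.0376 for Acat2, -0.25 to 0.0851 for Pmvk, -0.32 to 0.0457 for Fdps, -0.18 to 0.33 for Lss, -0.17 to 0.39 for Tm7sf2, -0.19 to 0.0276 for Msmo1, -0.80 to 0.0428 for Fasn and -0.15 to 0.58 for Acaca. The cause of these changes was not tested. No scaling moved the median of all tested genes by more than 0.0966 on the log2 scale. Idi1, Scd1 and Elovl6 were the members with libraries at 0 counts, where a level under 3 counts of the library is not detectable.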
